A study of Mus musculus with 36 samples.

Results

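In the liver, 1224 windows of 500 bp were more methylated in C3 mice than in B6 mice. They were found among fixed autosomal windows with at least 5 CpGs and at least 30 counts in each animal. A window was taken where mean percent methylation of the 6 C3 parents exceeded that of the 6 B6 parents by at least 30 points and every C3 animal lay above every B6 animal. The autosomes held 4254058 such windows with any CpG, of which 1496157 reached 5 CpGs and 1456902 also reached the counts, so that the 1224 windows were 0.0840% of those examined. They held 10947 CpGs over 612000 bp and carried the names of 871 genes, each the gene that a window overlapped or, between genes, the gene with the nearest protein-coding start site. The windows were chosen by the percent methylation of the B6 and C3 parents, so the strain difference is given as a description, with no test. Methylation of the 12 F1 animals played no part in the choice, though their counts had to reach 30 as well. The same rule turned around gave 1188 windows that were higher in B6, here called the mirrored windows.

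Methylation was measured by whole-genome bisulfite sequencing of liver DNA from 24 mice. B6 denotes the inbred strain C57BL/6N and C3 the inbred strain C3H/HeN. B6C3F1 animals had a B6 mother and a C3 father, and C3B6F1 animals a C3 mother and a B6 father, so both crosses carry the same autosomes and differ in which parent gave which copy. The crosses also differ in the strain of the dam that bore and nursed the pups and in the sex chromosomes of the sons. These cannot be told apart from the parent of origin of a copy. The parents were 3 males and 3 females of each strain, and each cross was represented by 3 sons and 3 daughters. The parents were the sires and dams of 6 families, 3 per cross, mated at 10 weeks of age, and litters were weaned at week 16. The labels give no treatment, and all 24 animals were kept in one facility and killed at 20 weeks. Females of the parental strains had borne and nursed pups, while F1 females were virgin, so among parents sex and parity cannot be told apart.

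In mammalian DNA most CpGs are methylated, and CpGs lose methylation where transcription factors hold DNA open, at active promoters and enhancers. A base change in one strain can remove or create a site at which such a factor binds, and the methylation of the nearby CpGs then differs between the strains. In an F1 animal each cell holds a copy from each strain, so a copy that keeps its parental state gives a level midway between the parents. A copy that adopts the state of the other, or that depends on the parent of origin, gives another level.

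The sequences of windows in which a base change alters letters bound by liver factors are shown first. They were chosen after their values were seen, from the largest strain differences among windows where such letters are in B6 and not at the same place in C3. Each is the plus strand of mm9, which here carries the B6 bases, 5′ to 3′, with the letters of the motif in capitals. Base changes are written with the mm9 and B6 base, the position counted from 1 at the 5′ end of the printed sequence, and the C3 base.

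Forkhead letters, bound by FOXA factors of the liver, were TGTTTAC or TGTTTGC on either strand. They are shown near Mcart1, a mitochondrial carrier (chr4:45422352-45422398) and in an intron of Sox5, a transcription factor (chr6:144299711-144299757).
Mcart1: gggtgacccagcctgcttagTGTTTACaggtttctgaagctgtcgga
Sox5: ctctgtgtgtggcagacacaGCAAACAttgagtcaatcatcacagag
The C3 sequence differed by T21G near Mcart1 and by T2A and C22G in Sox5, where C22G lies within the letters. Mean methylation near Mcart1 was 0.837% in B6, 56.4% in C3 and, among F1 animals, 20.8% in B6C3F1 and 22.0% in C3B6F1 (n = 6 each). In the Sox5 window B6 had 38.7% and C3 89.8%, while B6C3F1 had 61.8% and C3B6F1 62.0%. Both F1 means lay below the plain midpoint of the parents at these windows. C3 had fewer counts per CpG than B6 there (23.7 and 32.09 near Mcart1, 20.25 and 34.94 in Sox5). Whether F1 animals leaned to B6 apart from read depth was not tested.

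C/EBP letters, TTGCNNAA, are bound by C/EBP factors of hepatocytes. They are shown in an intron of Fez2, a gene of axon growth and autophagy (chr17:78779220-78779267), near Sc5d, an enzyme of cholesterol synthesis (chr9:42025915-42025962), and in an intron of Ephb2, a receptor tyrosine kinase for ephrins (chr4:136231824-136231871).
Fez2: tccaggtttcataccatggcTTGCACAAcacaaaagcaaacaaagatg
Sc5d: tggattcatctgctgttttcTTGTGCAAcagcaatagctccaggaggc
Ephb2: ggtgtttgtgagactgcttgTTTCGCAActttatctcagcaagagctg
The C3 sequence had G6C and T22A in Fez2, of which T22A lies within the letters, A27G near Sc5d and A28G in Ephb2. The Fez2 window had 28.7% in B6, 92.8% in C3 and, among F1 animals, 59.0% in B6C3F1 and 61.3% in C3B6F1. The Sc5d window had 28.4%, 90.3%, 50.7% and 48.8% in the same order, and the Ephb2 window 23.2%, 83.5%, 50.9% and 50.7%.

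Letters of the hepatocyte nuclear factors HNF4 (CAAAGTCC) and HNF1 (TTAATNATT) are shown in an intron of Cdh1, which encodes E-cadherin (chr8:109157666-109157713), and between genes near Thy1, a cell surface glycoprotein (chr9:43737822-43737870).
Cdh1: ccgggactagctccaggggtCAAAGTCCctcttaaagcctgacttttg
Thy1: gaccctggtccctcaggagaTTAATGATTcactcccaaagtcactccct
The C3 sequence had G4A and A23G in Cdh1, of which A23G lies within the letters, and T21C near Thy1. Mean methylation of the Cdh1 window was 26.3% in B6 and 74.6% in C3, and of the Thy1 window 22.6% and 58.2%. In B6C3F1 and C3B6F1 the levels were 46.5% and 51.5% at Cdh1 and 43.2% and 35.5% at Thy1.

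Other windows held no listed SNV, and 3 of these are shown as the stretch of 300 bases with most CpGs, with each CG in capitals. All are plus strand mm9 sequence between genes, on a chromosome segment named by its nearest protein-coding start site: Creb3l2, a membrane-bound transcription factor (chr6:37414501-37414800), Gm5444, a predicted gene (chr13:4942062-4942361), and Rab6b, a small GTPase of vesicle transport (chr9:103011048-103011347).
Creb3l2: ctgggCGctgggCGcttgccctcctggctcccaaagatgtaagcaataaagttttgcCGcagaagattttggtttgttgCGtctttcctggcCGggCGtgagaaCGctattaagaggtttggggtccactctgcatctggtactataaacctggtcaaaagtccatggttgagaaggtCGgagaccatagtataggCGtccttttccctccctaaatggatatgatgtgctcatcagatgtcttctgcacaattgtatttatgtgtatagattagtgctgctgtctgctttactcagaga
Gm5444: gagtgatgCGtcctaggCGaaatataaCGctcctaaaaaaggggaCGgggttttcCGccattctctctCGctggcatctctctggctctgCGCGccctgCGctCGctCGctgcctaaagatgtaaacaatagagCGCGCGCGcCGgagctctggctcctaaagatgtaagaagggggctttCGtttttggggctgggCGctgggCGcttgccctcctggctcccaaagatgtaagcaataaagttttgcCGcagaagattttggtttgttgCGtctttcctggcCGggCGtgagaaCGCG
Rab6b: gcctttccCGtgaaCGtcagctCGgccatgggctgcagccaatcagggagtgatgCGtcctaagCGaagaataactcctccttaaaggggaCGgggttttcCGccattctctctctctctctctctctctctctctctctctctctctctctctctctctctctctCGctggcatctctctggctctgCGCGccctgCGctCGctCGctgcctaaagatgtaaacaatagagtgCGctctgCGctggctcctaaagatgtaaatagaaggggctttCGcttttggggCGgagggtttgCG
The stretches hold 9, 25 and 18 CpGs. The nearest SNV lay 90219 bp from the Creb3l2 window, 638609 bp from the Gm5444 window and 2017 bp from the Rab6b window. The Gm5444 stretch shares long runs of bases with both of the others, which lie on other chromosomes. The longest run in common was 107 bases between Creb3l2 and Gm5444 and 73 bases between Gm5444 and Rab6b, read on the same strand. Their methylation is given with the F1 animals below.

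Over the 1224 windows, B6 animals averaged 35.3% ± 0.683 methylation (SD, n = 6) and C3 animals 75.8% ± 0.477 (SD, n = 6). Single B6 animals lay between 34.0% and 36.0% and single C3 animals between 74.9% and 76.3%, so animals of a strain were close to each other. Over all windows examined the animals of the 4 groups averaged 78% to 78.7%, so that C3 stood near the level of the genome and B6 far below it. The strain difference ranged from 30.0 to 87.1 points, with quartiles of 33.1, 37.5 and 44.6. It reached 40 points in 478 windows, 50 in 187, 60 in 77 and 70 in 21. B6 was intermediate, from 20 to 60%, in 996 windows, below 20% in 192 and above 60% in 36. C3 exceeded 80% in 549 windows, and in 19 windows B6 was below 20% and C3 above 80%.

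The threshold cut through a continuous range of values. Just inside it were an intron window of Capn5, a calpain protease (chr7:105291001-105291500), at 62.6% in B6 and 92.6% in C3, and an exon window of E130018O15Rik at 20.9% and 50.9%. Just outside were windows near Yeats4 at 53.8% and 83.8% and in Ddi2 at 44.3% and 74.3%. These 4 differences were 30.002, 30.006, 29.999 and 29.991 points.

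Windows that touch were joined into 1071 runs, of which 940 were single windows, 113 were pairs, 15 had 3 windows, 2 had 4 and 1 had 5. The mean difference fell off within a short span. In the bin of 250 bp just before the middle of the window B6 averaged 33.3% and C3 73.7%, and in that centred 1125 bp before it 67.0% and 71.7%. In the bin centred 4875 bp after the middle the means were 75.5% and 75.1%. F1 animals followed between the parents, at 50.8% in B6C3F1 and 51.6% in C3B6F1 in the bin just before the middle.

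**Figure D1:**
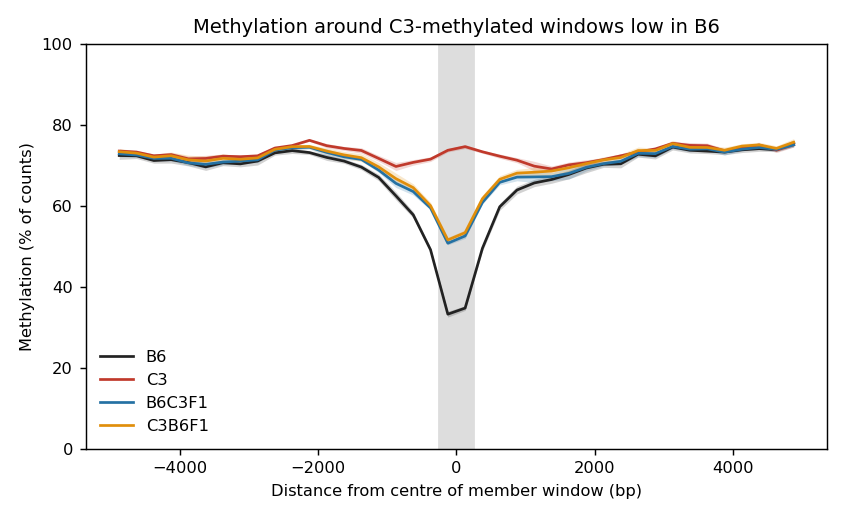
Percent methylation (y axis) against distance in bp from the middle of the window (x axis), averaged over the 1224 windows in bins of 250 bp for B6, C3, B6C3F1 and C3B6F1, with bands of 1 SD over 6 animals. B6 dips to 33.3% at the centre while C3 stays at 73.7%, both F1 groups lie between them, and all groups meet towards 5000 bp on either side.

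Depth differed between the strains at these windows. Total counts on autosomal CpGs ran from 365740739 to 619888157 per animal, or 19.4 to 32.8 per CpG. Mean counts per CpG were 28.8 in B6 and 20.0 in C3 in the 1224 windows, while C3 had 27.6 over all windows examined. The median ratio of C3 to B6 depth was 0.721 in the 1224 windows, 0.715 in the mirrored windows and 0.947 in all. C3 had under 50% of the depth of B6 in 301 windows (24.6%), against 2.76% of all windows. Reads were aligned to mm9, which carries the B6 base at nearly every SNV, and C3 levels in these windows rest on fewer reads than B6 levels.

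As a check of the tissue, CpGs within 500 bp of the start sites of marker genes were read. For 8 hepatocyte genes, Alb, Ttr and Apoa1 among them, mean methylation was 28.0% in B6, 24% in C3 and 27.4% in F1 animals. For 8 leukocyte genes it was 79.5%, 81.5% and 80.8%, for 5 endothelial genes 46.3%, 47.3% and 46.5%, and for 3 Kupffer cell genes 82.3%, 82.4% and 82.7%. Strain means of single genes ran from 14.1% to 61.7% (Serpina1a in B6) for hepatocyte genes. For endothelial genes they ran from 2.03% (Kdr in B6) to 75.5%, so these averages mix unlike genes. Vsig4, also on the Kupffer list, was not read. In whole liver a change in the share of a cell type and a change within cells cannot be told apart, and the part of cell composition in the windows was not tested.

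Most windows lay away from start sites. Of the 1224, 200 were exonic (16.3%), 484 intronic (39.5%) and 540 intergenic (44.1%). All windows examined were exonic in 14.4%, intronic in 37.4% and intergenic in 48.3% of cases, and the mirrored windows in 10.2%, 43.0% and 46.8%. A protein-coding start site lay within 1 kb of 110 windows (8.99%), against 6.10% of all and 4.71% of the mirrored windows. More than 10 kb separated 65.8% of the windows from a start site, against 73.7% of all. By GC and CpG content 2.94% of the windows and 2.20% of all were like CpG islands.

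SNVs were more frequent in the windows than elsewhere. At least 1 SNV lay in 848 windows (69.3%), against 22.1% of all windows, and 70.4% of the mirrored windows had one. The mean number was 2.12 per window against 0.500 over all windows. Within 1 kb there was an SNV for 90.4% of the windows and for 39.1% of all. At the other end, 49 windows (4.00%) had no SNV within 10 kb, against 39.8% of all windows, and these are taken up with the F1 animals.

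Chromosomes 17 and 4 held most windows for their size, with 1.36 and 1.26 per 1000 windows examined, and chromosome 10 fewest, with 0.374. The 1 Mb with most windows, chr4:139000001-140000000, held 12 of 1251 examined (9.59 per 1000) and 3 mirrored ones, among them windows of Iffo2, which was named by 8 windows in 7 runs, and of Aldh4a1, a mitochondrial dehydrogenase. The segment chr17:78000001-79000000 held 11 of 541 (20.3 per 1000), in Fez2 and Crim1, and 1 mirrored window. Fez2 alone was named by 9 windows in 5 runs. At chr7:105000001-106000000 there were 9 of 712 (12.6 per 1000) and no mirrored window. Of the other segments with at least 9 windows, chr12:113000001-114000000 held 10 and 7 mirrored, chr1:172000001-173000000 9 and 9, chr7:106000001-107000000 9 and 4, and chr4:136000001-137000000 9 and 2. SNVs were dense in all of these segments, against 0.500 per window examined over the genome. The first 3 segments named had 1.56, 2.61 and 2.45, and the later ones 2.87, 2.76, 2.49 and 2.59 in the order given.

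Changes of motif letters ran mostly one way. In 67 windows letters for forkhead, C/EBP, HNF4, HNF1 or ONECUT factors stood at a place in the B6 sequence and not at that place in the C3 sequence. The reverse held for 11. Each place was compared by itself, so the other strain may hold the same letters elsewhere in the window. Letters in B6 alone or in C3 alone are meant in this sense here and below. In the mirrored windows the counts were 16 and 64, and over all windows examined 4904 and 4825. The direction therefore went with the strain that was lower in methylation in both sets, while the background was even. Among the 472 windows with a C3 depth of 80 to 120% of B6 the counts were 25 and 5. By factor, letters in B6 and not C3 against C3 and not B6 numbered 21 against 4 windows for forkhead, 21 against 2 for C/EBP, 17 against 4 for ONECUT (ATTGAT), 6 against 1 for HNF4 and 3 against 0 for HNF1.

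Letters of other factors were counted in the same way. The nuclear receptor letters AGGTCA were in B6 alone in 22 windows and in C3 alone in 6, while for the E-box (CACGTG) these counts were 9 and 2. The STAT letters TTCNNNGAA were in B6 alone in 8 windows and in C3 alone in 2. In the mirrored windows the counts in B6 alone and in C3 alone were 8 and 14 for the nuclear receptor letters, 4 and 5 for the E-box and 4 and 1 for STAT, so the STAT letters did not turn around there. For AP-1 (TGANTCA) the counts were 2 and 4, for GATA factors (AGATAA) 7 and 5 (in the mirrored windows 5 and 21), and for CTCF, the factor of chromatin loops (AGGGGGC), 2 and 4. For ZFP57, which keeps imprints (TGCCGC), they were 6 and 6, for ETS factors (CCGGAAG) 1 and 1, and for NRF1, a factor that methylation keeps from its sites (GCGCATGC), 1 and 0. Both strands were searched, a window may count under several factors, and none of these strings contains another.

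The share of windows that hold the letters in the B6 sequence is set beside that of all windows. Letters in C3 alone are left out of it, and letters in 1 strain alone were more often in B6 in the 1224. Forkhead letters were in 20.4% of the 1224 windows and 16.9% of all windows examined, C/EBP in 21.7% and 19.7%, HNF4 in 3.59% and 1.98%, HNF1 in 2.86% and 2.67%, and ONECUT in 16.3% and 17.0%. The nuclear receptor letters were in 34.2% and 27.6%, the E-box in 11.0% and 9.11%, STAT in 13.6% and 15.7%, AP-1 in 14.8% and 14.0%, and GATA in 23.7% and 24.2%. CTCF letters were in 8.58% and 5.92%, ZFP57 in 10.9% and 7.01%, ETS in 3.76% and 3.11%, and NRF1 in 1.14% and 1.27%. A match of letters is a description and does not show that a factor was bound.

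**Figure D2:**
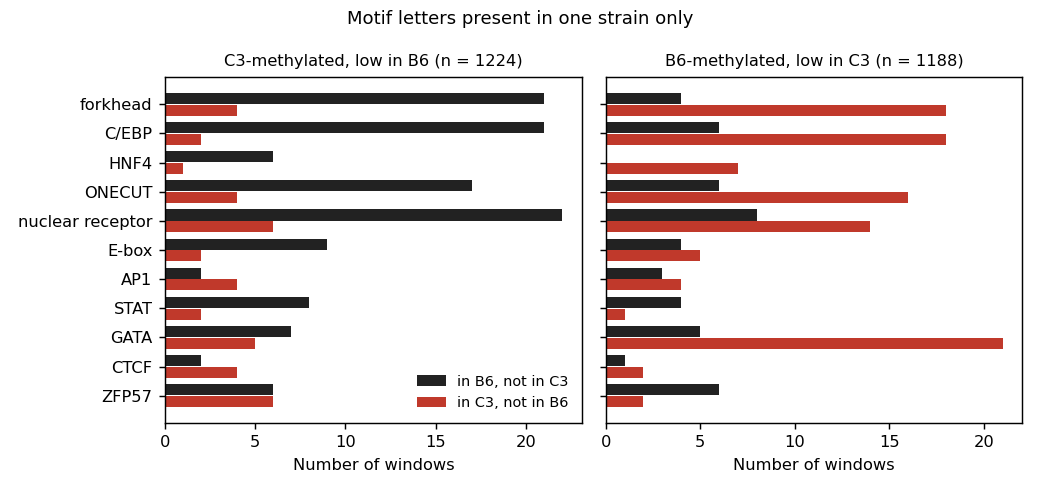
Number of windows (x axis) in which motif letters stand at a place in 1 strain and not at that place in the other. The 1224 windows and the 1188 mirrored windows are shown, with bars for letters in B6 and not C3 and for letters in C3 and not B6. The other strain may hold the letters elsewhere in the window. Forkhead letters are in B6 alone in 21 of the 1224 windows and in C3 alone in 4, and in the mirrored windows the counts are 4 and 18.

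The largest strain differences were at windows between genes and in introns. In an intron of Nod1, a sensor of bacterial peptidoglycan (chr6:54904501-54905000), the lowest, median and highest B6 animals had 7.01, 8.49 and 12.4% and the C3 animals 90.5, 96.3 and 98.8%. B6C3F1 animals had 40.9, 44.0 and 55.5% and C3B6F1 animals 36.4, 46.2 and 56.3%. No group of parents overlapped an F1 group there, and the crosses overlapped each other. Near Pdcd2, a ribosome assembly chaperone (chr17:15673001-15673500), means were 10.6% ± 2.13 in B6, 93.5% ± 1.03 in C3 and, among F1 animals, 42.9% ± 6.84 in B6C3F1 and 40.9% ± 3.95 in C3B6F1 (SD, n = 6 each). Near Hs3st3a1, a heparan sulfate sulfotransferase (chr11:64402501-64403000), they were 14.4% ± 3.76, 92.9% ± 4.36, 44.6% ± 6.11 and 37.6% ± 7.29. The windows near Zfp644 (chr5:107220001-107220500) and Gm6055 (chr14:48527501-48528000) rose by 74.4 and 72.4 points from B6 to C3, and that near Tgif1, a homeobox repressor (chr17:71222501-71223000), by 72.1 points.

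The longest run lay at Wnt5a, a secreted ligand of noncanonical Wnt signalling, over 5 windows and 128 CpGs with no SNV (chr14:29322501-29325000). Means over the run were 24.9% in B6, 65.9% in C3 and 40.4% in F1 animals. Runs of 4 windows lay near Tgif1 (chr17:71221501-71223500), at 32.1%, 90.1% and 59.3%, and at the promoter of Phldb2, which encodes a protein of the cell cortex (chr16:45843501-45845500), at 26.2%, 73.1% and 42.8%. Runs of 3 windows lay near Pdcd2, at 27.4%, 93.1% and 50.8%, and near Rab6b, at 33.5%, 91.2% and 88.4%. F1 animals were between the parents in the first 4 of these runs and next to C3 near Rab6b.

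Promoters with large differences belonged to genes of several functions. A window holding a start site of Akr1e1, an aldo-keto reductase, with coding sequence and UTR (chr13:4608001-4608500), had B6 animals at 2.52, 4.15 and 7.62% and C3 animals at 60.7, 73.7 and 83.4%. B6C3F1 animals had 47.6, 51.2 and 61.6% and C3B6F1 animals 47.5, 59.1 and 72.8%, so the F1 animals lay nearer to C3. The nearest SNV was 584649 bp away. The neighbouring window (chr13:4607501-4608000) had means of 9.41% in B6, 76.5% in C3 and, among F1 animals, 59.1% in B6C3F1 and 60.9% in C3B6F1.

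The window over the start site of Ccl27a, a chemokine (chr4:41721001-41721500), had means of 10.2% ± 1.71 in B6, 75% ± 5.16 in C3 and 27.8% ± 6.16 in F1 animals (SD, n = 6, 6 and 12). That of Asb4, a ubiquitin ligase subunit (chr6:5333001-5333500), had 7.18% ± 1.22, 68.2% ± 4.75 and 31.5% ± 3.41. An intron window 327 bp from the start of Pafah2, which hydrolyses oxidised phospholipids (chr4:133958001-133958500), had 12.6% ± 4.22, 73.6% ± 5.68 and 33.9% ± 5.30. The F1 levels of these 3 were nearer to B6 than to C3, but C3 had fewer counts per CpG than B6 (11.9 and 29.0 at Ccl27a, 25.0 and 38.6 at Asb4, 15.6 and 29.6 at Pafah2). A midparent that weights each strain by these counts would be 29.0%, 31.2% and 33.7%, within 2 points of the F1 means. Whether read depth sets these F1 levels was not tested. At Mcart1, whose window with the forkhead letters shown above lies 368 bp from the start (chr4:45422001-45422500), B6 animals had 0.227, 0.862 and 1.58% and C3 animals 51.8, 54.7 and 66.1%. At Tap1, the peptide transporter of antigen presentation, an exon window 804 bp from the start (chr17:34328501-34329000) had 37.3% ± 9.55, 91.9% ± 1.34 and 66.2% ± 6.35 in B6, C3 and F1 animals. The Phldb2 window over the start site (chr16:45844001-45844500) had 20.3% ± 14.4, 74.3% ± 5.21 and 36.0% ± 5.39.

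Windows at genes of the liver were counted by list. Of the windows examined at 33 liver transcription factor genes, 6 of 6598 were among the 1224, or 0.909 per 1000, against 0.840 per 1000 over all windows. They were 3 windows of Ppara, the fatty acid sensing nuclear receptor, and 1 each of Rora, Onecut1 and Pparg. In the Ppara exon window (chr15:85617501-85618000) means were 41.4% ± 3.50 in B6, 92.5% ± 1.27 in C3 and 59.5% ± 5.21 in F1 animals (SD, n = 6, 6 and 12). In the Rora intron window (chr9:68746001-68746500) they were 34.1% ± 1.83, 81.2% ± 5.73 and 45.6% ± 8.26. No window lay at a gene of the FOXA, HNF1, HNF4 or C/EBP families by these names.

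Among genes of drug and xenobiotic metabolism, 10 of 6541 windows were among the 1224 (1.53 per 1000), of the genes Aldh4a1, Cyp2c44, Cyp39a1, Cyp46a1, Cyp4f13, Gsta1 and Sult2b1. The list was made by symbol, and Cyp46a1 and Cyp39a1 encode sterol hydroxylases. The window over the start of Cyp2c44, an arachidonic acid epoxygenase (chr19:44103501-44104000), had 32.7% ± 4.19 in B6, 83.3% ± 3.89 in C3 and 61.3% ± 4.18 in F1 animals. An exon window of Cyp46a1 (chr12:109591001-109591500) had 8.71% ± 1.41, 76.0% ± 3.33 and 28.7% ± 5.14, and an intron window of Sult2b1, a sterol sulfotransferase (chr7:52994501-52995000), had 12.2% ± 2.69, 51.3% ± 8.72 and 20.5% ± 3.52. Near Gsta1, a glutathione transferase (chr9:78070501-78071000), they were 46.1% ± 6.40, 82.4% ± 2.96 and 63.2% ± 4.06. Of 733 windows at plasma protein genes 1 was among the 1224, between genes near Apob, which encodes the protein of very low density lipoprotein, at 43.8%, 84.6% and 58.8%.

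Zinc finger genes with symbols starting Zfp held 24 of 21295 windows (1.13 per 1000), of 17 genes. Olfactory and vomeronasal receptor genes held 4 of 12377 (0.323 per 1000), with 14 mirrored windows. One of these, between genes near Olfr161 (chr16:3633001-3633500), had 22.0% ± 3.97 in B6, 63.6% ± 6.14 in C3 and, among F1 animals, 61.4% ± 6.60 in B6C3F1 and 63.8% ± 3.98 in C3B6F1, and its nearest SNV was 26993 bp away. None of 1782 windows at 19 listed imprinted genes, 394 at histocompatibility genes of the H2- symbols and 585 at clustered protocadherins was among the 1224. The list of imprinted genes is not complete. These lists are small for a rate of 0.840 per 1000, so nothing is read from the counts of 0.

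The F1 animals lay between the parents, nearer to B6. Their level is given as a position on the scale from B6 at 0 to C3 at 1. The median position over the 1224 windows was 0.417, with quartiles of 0.333 and 0.491. It was 0.408 in B6C3F1 and 0.424 in C3B6F1. The position was from 0.25 to 0.75 in 1072 windows, below 0.25 in 109 and above 0.75 in 43. In 494 windows (40.4%) all 12 F1 animals lay above all B6 and below all C3 animals. The rule had set the parents apart in these windows and no share over all windows stands beside this count, so nothing is read from it. Over the windows B6C3F1 animals averaged 52.0% ± 0.523 (SD, n = 6) and C3B6F1 animals 52.7% ± 0.658 (SD, n = 6), with single animals from 51.4% to 52.7% and from 51.9% to 53.7%.

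The position of the F1 animals went with the depth of C3 reads. It had a median of 0.310 in the 301 windows where C3 had under 50% of the depth of B6, 0.399 in 443 windows from 50 to 80%, 0.490 in 472 windows from 80 to 120%, and 0.70 in 8 windows above 120%. An F1 animal whose copies are sampled as unequally as the parents were would show a midpoint weighted by the parental depths. On a scale with that weighted midpoint at 0.5, the medians in the same 4 classes were 0.517, 0.505, 0.510 and 0.460. The median of F1 minus the plain midparent was -3.33 points, and that of F1 minus the depth-weighted midparent 0.424. In the mirrored windows, where B6 was high, the same differences were 4.68 and 0.817 points, so in both sets F1 animals stood on the B6 side of the plain midparent. Whether read depth sets the F1 level was not tested.

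**Figure D3:**
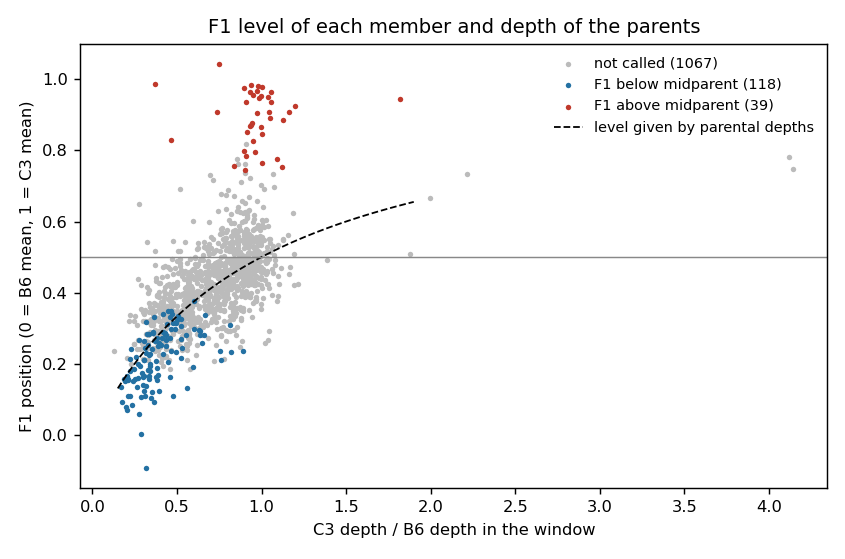
Position of the F1 animals between B6 (0) and C3 (1) on the y axis against the ratio of C3 to B6 counts per CpG on the x axis, 1 point per window. Points in red are the 39 windows called above the midparent, points in blue the 118 called below and points in grey the 1067 not called, and the dashed line is the position that the parental depths alone would give. The median ratio is 0.368 for the blue points and 0.973 for the red points.

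The F1 animals were then compared with the midparent by limma on percent methylation of all windows. All parents had been bred and the F1 daughters were virgin. Hybrid state therefore cannot be told apart from generation and breeding history in this comparison. A window was called where p was below 0.05 after Benjamini-Hochberg adjustment and the distance was at least 10 points. The midparent contains the parental values used by the rule, so the p-values of this comparison may depend on the choice of windows. The methylation values of the F1 animals were not used by the rule. F1 animals were below the midparent in 118 of the 1224 windows (9.64%), in 110 runs, against 0.0117% of all windows examined. They were above it in 39 windows (3.19%), in 25 runs, against 0.0427% of all. A window whose parents hardly differ can scarcely lie 10 points from its midparent, so nothing is read from the shares of all windows here. In the mirrored windows 194 were above and 2 below, the opposite split.

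The 118 windows below the midparent had few C3 reads. The median ratio of C3 to B6 depth was 0.368, ranging from 0.172 to 0.893, and in 95 windows C3 had under 50% of the depth of B6. An SNV lay in 90 of them (76.3%). Against the depth-weighted midparent 1 of the 118 was still at least 10 points below. Near Gm10775 (chr13:65343501-65344000) counts per CpG were 22.1 in B6 and 4.64 in C3, and methylation was 17.5% ± 3.03 in B6, 92.1% ± 3.63 in C3 and 29.3% ± 5.57 in F1 animals (adjusted p = 1.29e-09, limma). The F1 mean was -25.5 points from the midparent and -1.17 from the depth-weighted midparent. Near Fcgr3, an Fc receptor of myeloid cells (chr1:172974501-172975000), these distances were -22.7 and -3.73, near Stt3b, a subunit of the oligosaccharyltransferase (chr9:115223501-115224000), -21.3 and -0.609, and in Ccnf, an F-box cyclin (chr17:24383001-24383500), -20.5 and -1.50.

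The 39 windows above the midparent were of another kind. Their median depth ratio was 0.973, and 34 had a C3 depth of 80 to 120% of B6. An SNV lay in 10 of them (25.6%), while 16 had none within 10 kb, and 29 were intergenic. F1 position exceeded 0.75 in 38 of the 39. Against the depth-weighted midparent 38 were still at least 10 points above, with a median excess of 18.3 points, against 18.0 for the plain midparent. B6 animals varied more in these windows, with a median SD of 6.14 points against 4.75 over the 1224.

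Near Gm5444, in the CpG-rich stretch shown above (chr13:4942001-4942500), B6 animals had 3.56, 20.5 and 32.6% and C3 animals 94.7, 95.8 and 96.8% as lowest, median and highest. B6C3F1 animals had 72.1, 87.1 and 95.4% and C3B6F1 animals 85.3, 94.3 and 96.4%. Every F1 animal was above every B6 animal, and the F1 mean was 31.0 points above the midparent (SE 2.68, adjusted p = 1.47e-07, limma). The Gm5444 and Akr1e1 windows lie in the same stretch without a listed SNV, chr13:4023353-5581108.

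At Chd6 (chr2:161337001-161337500), 402243 bp from the start of this chromatin remodeller, B6 animals had a mean of 30.1% ± 7.60 (SD, n = 6) and a lowest value of 22.8%. The lowest, median and highest C3 animals had 88.7, 94.4 and 95.2%, B6C3F1 animals 89.2, 90.8 and 92.1% and C3B6F1 animals 89.3, 92.6 and 96.4%. F1 animals overlapped C3 and not B6, 30.3 points above the midparent (adjusted p = 2.85e-14, limma). Near Rab6b (chr9:103011001-103011500) B6 animals had 17.8, 27.7 and 32.4%, C3 animals 91.1, 93.6 and 95.3% and F1 animals 81.5, 90.6 and 94.3%, 30.0 points above the midparent (adjusted p = 2.42e-12, limma). In an intron of Sntg1, a syntrophin (chr1:8400501-8401000), the values for B6, C3 and F1 animals were 25.7, 33.0 and 48.5%, then 90.5, 93.0 and 94.7%, then 89.9, 91.3 and 93.0%, and the excess 27.6 points (adjusted p = 2.10e-11, limma). At all 3 windows both crosses stood near the C3 level. The Akr1e1 promoter window was 17.6 points above the midparent (adjusted p = 0.000157, limma).

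**Figure D4:**
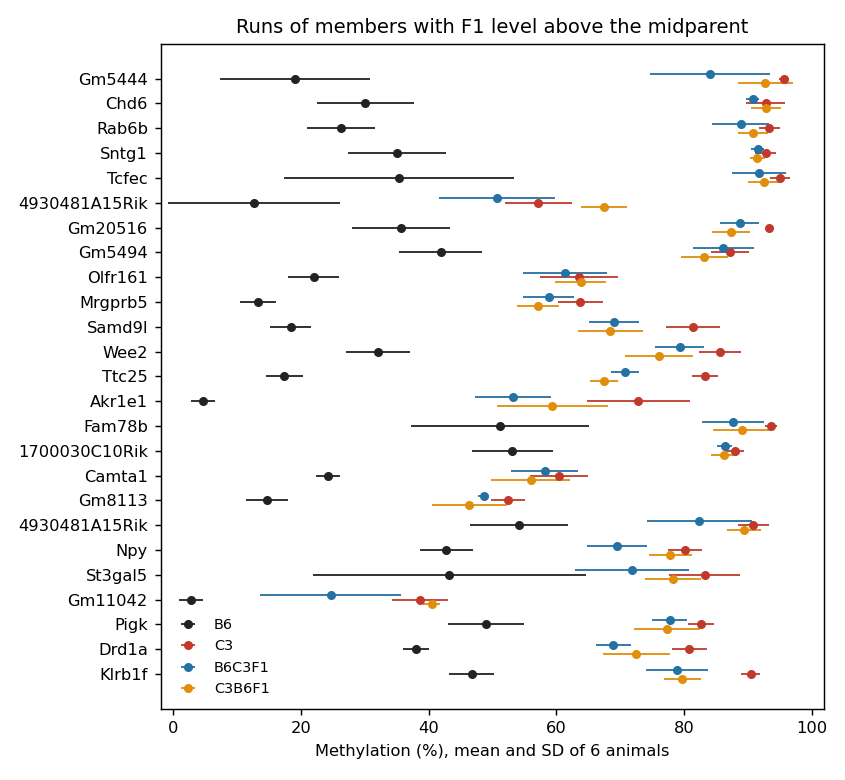
Percent methylation (x axis) at the 25 runs called above the midparent, 1 row per run, shown by its window with the largest excess. Points are means of 6 animals and bars 1 SD for B6, C3, B6C3F1 and C3B6F1. Near Chd6 the means are 30.1%, 92.8%, 90.8% and 92.8%, and in most rows both F1 points lie close to C3.

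The 4 runs farthest above the midparent, each taken by its window with the largest excess (near Gm5444, Chd6, Rab6b and Sntg1), were compared for runs of at least 20 common bases, which 4 of the 6 pairs had. The longest common runs were 73 bases between Gm5444 and Rab6b, 49 between Gm5444 and Sntg1, 34 between Rab6b and Sntg1 and, on opposite strands, 24 between Gm5444 and Chd6. Words of 20 bases that at least 2 of these 4 stretches share were then looked up on both strands of all windows, a search made after the sequences were seen. Such a word was in 12 of the 1224 windows (0.980%), in 8 runs that include the 4 that gave the words, and in 1313 of all windows (0.0901%). Outside the 4 runs that gave the words it was in 6 of 1215 windows (0.494%), in 4 runs. Of these 6, 3 were called above the midparent, in 2 runs, while 30 of all 1215 were called above it. Adjoining windows are not separate cases, so nothing is read from so few runs.

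Windows with these words were highly methylated elsewhere. Over all 1313 the mean was 93.3% in B6, 94.2% in C3 and 94.2% in F1 animals, so B6 was low at few of these windows. In the 12 among the 1224 the means were 32.0%, 91.4% and 81.1%. The words came from windows chosen for their F1 level, so the F1 positions of the 12 are given as a description. They ran from 0.424, at Creb3l2, to 0.984, at Chd6, so windows that hold such words differed in how F1 animals stood between the parents. Mean counts per CpG in B6 were 26.0 in the 12 windows and 16.3 over the 1313. The repeat class of these bases was not looked up, and reads of near-identical copies may have been placed at the wrong copy.

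The 49 windows with no SNV within 10 kb, in 35 runs, had a median F1 position of 0.597, with 16 above 0.75. Their median depth ratio was 0.924 and their median CpG number 14, against 7 over the 1224. In 17 of them no SNV lay within 100 kb. F1 position ranged from 0.232 to 0.984, so these windows were not of 1 kind. The Creb3l2 window shown above (chr6:37414501-37415000) had 8.43% ± 2.63 in B6, 85.5% ± 7.81 in C3 and, among F1 animals, 32.7% ± 7.32 in B6C3F1 and 49.5% ± 14.3 in C3B6F1 (SD, n = 6 each), an F1 position of 0.424. In exon and UTR sequence of Ttc25, a protein of motile cilia (chr11:100432501-100433000), the means were 17.4% ± 2.90, 83.3% ± 2.00, 70.8% ± 2.21 and 67.5% ± 2.14, a position of 0.785. Windows with an SNV inside had a median position of 0.411 and those without 0.436.

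The reciprocal crosses differed little. In 1012 of the 1224 windows the means of B6C3F1 and C3B6F1 were within 5 points of each other, and in 24 they were over 10 points apart. C3B6F1 was the higher in 687, with a median difference of 0.511 points, against -0.292 over all windows. In a limma fit to the log2 of methylated over unmethylated counts, called at the same limits of adjusted p and points, C3B6F1 was higher in 4 windows (0.327%), against 0.000961% of all, and B6C3F1 in 1 (0.0817%), against 0.000824% of all. In the mirrored windows 0 were called in either direction, and nothing is read from counts this small. Without adjustment 127 windows had p below 0.05 (10.4%, against 6.69% of all windows), of which C3B6F1 was higher in 88 and B6C3F1 in 39. Over all 1456902 windows the order was the opposite, with C3B6F1 higher in 29240 and B6C3F1 in 68295.

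C3B6F1 was higher at 2 adjoining windows of Samd12, a gene of a sterile alpha motif protein, with exon sequence and UTR. In the window that holds a start site (chr15:53734001-53734500) B6 animals had 0.727, 1.45 and 2.31% and C3 animals 20.9, 43.9 and 50.3%. B6C3F1 animals had 2.10, 4.76 and 6.84% and C3B6F1 animals 12.0, 17.4 and 20.3%. The crosses differed by 2.09 on the log2 ratio scale (SE 0.286, adjusted p = 0.00321, limma). In the other window (chr15:53733501-53734000) the values were 0.857, 1.48 and 2.37% in B6, 23.9, 39.8 and 53.5% in C3, 1.12, 2.74 and 3.8% in B6C3F1 and 9.54, 17.9 and 27.6% in C3B6F1, a difference of 3.04 on the log2 ratio scale (SE 0.300, adjusted p = 5.43e-06, limma). In both windows B6C3F1 animals were close to B6, and the median of C3B6F1 animals, which had their C3 copy from the mother, lay between those of the parents. In the window without the start site the highest C3B6F1 animal (27.6%) lay above the lowest C3 animal (23.9%). The nearest SNV was 97898 bp from the nearer window, so copies cannot be told apart by sequence there. Both windows were called in each of the 24 fits that left out 1 animal and neither at 20 points, and the window with the start site was not called on the arcsine scale (adjusted p = 0.0748, limma).

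In an intron of Abr (chr11:76426001-76426500), B6 animals had 3.49, 4.93 and 11.1%, C3 animals 45.7, 63.0 and 74.8%, B6C3F1 animals 12.4, 13.5 and 18.8% and C3B6F1 animals 19.7, 37.6 and 49.9% (adjusted p = 0.0386, limma). This window was called in 8 of the 24 fits with an animal left out, and not on the arcsine scale. In an intron of 4930481A15Rik (chr19:5407501-5408000) the values in the same order of groups were 39.5, 47.9 and 56.2%, 73.2, 81.4 and 84.7%, 63.6, 71.7 and 79.8% and 80.8, 86.6 and 89.9% (adjusted p = 0.0218, limma), so that C3B6F1 lay above the C3 mean, and it was called in 16 of the 24, and neither at 20 points nor on the arcsine scale. The window in which B6C3F1 was higher overlaps the lincRNA Gm17536 and is nearest to C1ql1, a complement-like secreted protein (chr11:102824501-102825000). It had 15.1, 19.4 and 21.7% in B6, 45.1, 49.8 and 55.5% in C3, 42.3, 48.5 and 62.8% in B6C3F1 and 16, 26.8 and 43.2% in C3B6F1 (adjusted p = 0.0101, limma), and was called in 19 of the 24. In B6C3F1 this window was at the C3 level and in C3B6F1 nearer to B6. The sign of the difference between crosses was the reverse of that at Samd12, where the median of neither cross reached that of C3.

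**Figure D5:**
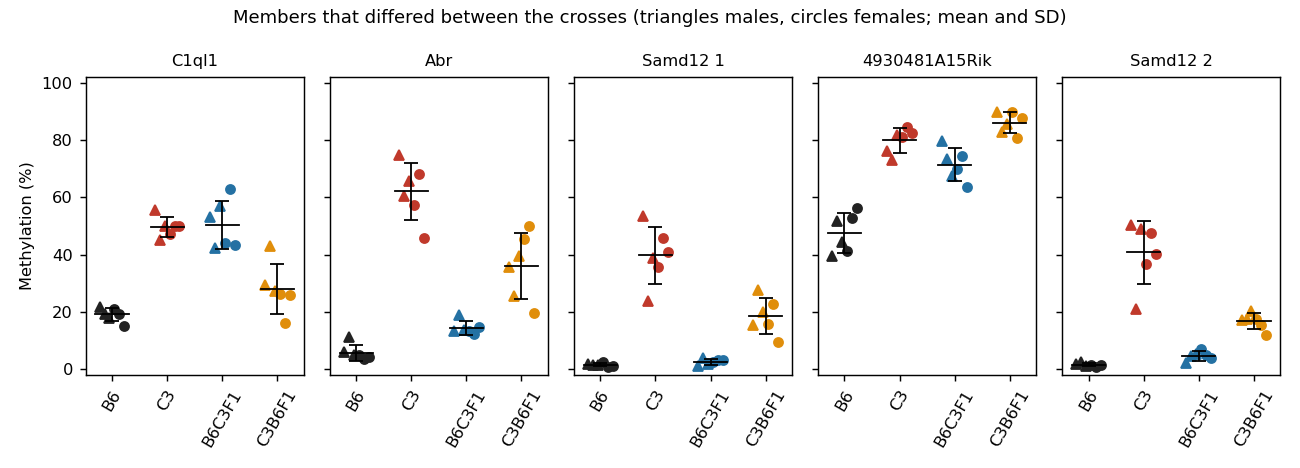
Percent methylation (y axis) of each animal at the 5 windows called between the crosses, for B6, C3, B6C3F1 and C3B6F1, with triangles for males, circles for females, and the mean and SD of 6 animals. At Samd12 (chr15:53733501-53734000) B6C3F1 animals run from 1.12% to 3.8% and C3B6F1 animals from 9.54% to 27.6%.

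F1 sons and daughters differed in 18 of the 1224 windows by the same test. Daughters were higher in 14 (1.14%), against 0.225% of all windows, and sons in 4 (0.327%), against 0.0305% of all. In the mirrored windows daughters were higher in 23 (1.94%) and sons in 2 (0.168%). The room that a level leaves to differ by 10 points was not taken into account, here or for the crosses. Between the F1 sexes, shares above those of all windows were thus not particular to the 1224. Without adjustment 181 windows had p below 0.05 (14.8%, against 7.02% of all windows), of which daughters were higher in 117 and sons in 64. Over all windows these counts were 52310 and 49981. The largest difference was in an intron of Fez2 (chr17:78806001-78806500), where daughters ran from 60.5% to 73.4% and sons from 21.7% to 55.0% (adjusted p = 0.00923, limma). In an intron of Cast, the calpain inhibitor calpastatin (chr13:74943501-74944000), daughters had 71.6% to 78.7% and sons 45.1% to 59.5% (adjusted p = 1.23e-05, limma). Near Nrn1, which encodes neuritin (chr13:36787501-36788000), sons were higher, with 45.9% to 58.6% against 19.4% to 36.6% (adjusted p = 2.05e-05, limma). The other named windows, all higher in daughters, lay in Calcrl, a receptor for adrenomedullin (19.7 points), Bcas3 (19.7 points) and O3far1, a receptor for long-chain fatty acids (19 points).

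The parental values at these 18 windows are given as a description, since the rule used them. The sex difference had the direction of the F1 animals in both parental strains at all 18. Its median size was 16.1 points in F1 animals, 18.9 in B6 and 9.85 in C3. The difference between strains was not tested, and C3 was chosen to be high and B6 low in these windows. In Cast, B6 females were 32.8 points above B6 males and C3 females 7.56 points above C3 males, and in Fez2 37.9 and 4.73 points. In O3far1 the values were 18.8 points in B6 and 30.7 in C3.

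Among the B6 parents, windows were counted in which the 3 females and 3 males did not overlap and differed by at least 10 points, with no test. Females were higher in 45 (3.68%), against 0.434% of all windows, and males in 64 (5.23%), against 0.483%. Among the C3 parents females were higher in 34 (2.78%), against 0.549%, and males in 28 (2.29%), against 0.521%. The rule itself used the values of these animals, so these shares describe the windows chosen. At the Phldb2 promoter (chr16:45844001-45844500) B6 males had 4.61% to 12.6% and B6 females, which had borne litters, 28.9% to 36.7%. F1 daughters and sons had means of 39.1% and 32.9% there (adjusted p = 0.724, limma).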

How the data were processed

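Liver methylation was read in 24 mice. The authors deposited counts of methylated and unmethylated reads per CpG, made with CASAVA 1.8.2, Bismark 0.7.8 and Bowtie 0.12.8 on mm9 (Picard 1.110 is also listed), duplicates removed and read ends clipped. They kept CpGs present in mm9 and both strains and did not pool animals. Because reads were aligned to mm9, C3 reads with several differences may be lost, which could lower C3 depth. The authors also deposited bases of B6 and C3 at SNVs, from genomic sequencing, and the caller is not given in the sources used here. All 48 count columns were used, and 12 samples of the FOXA1 ChIP experiment, input included, were not analysed here.

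Percent methylation of a window of 500 bp is the sum of methylated counts over all counts, without normalization. Annotation was GENCODE vM1 for mm9. Means per group of strain or cross and sex were fitted by limma 3.58.1 (R 4.3.3) to all 1456902 windows and 24 animals, with trended and robust variances. Crosses and F1 sexes were tested on log2((methylated + 1)/(unmethylated + 1)), and F1 against midparent on percent. P-values were adjusted by Benjamini-Hochberg over all windows, called at 0.05 and 10 points, and measure the spread between animals. The fits were tried on simulated counts in which only differences between the crosses were put in. Both parental strains were drawn alike there, so the midparent fit was not tried where the strains differ. Python 3.11.15, pandas 2.3.3 and scipy 1.17.1 did the rest.

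Named windows were the 8 largest differences at 10 counts per CpG, the 5 longest runs, the 8 largest within 1000 bp of a start site, up to 6 calls each between crosses and sexes, 4 called on either side of the midparent, 2 on either side of the threshold, and largest differences without an SNV within 10 kb and per gene list. Those with motif letters, the sequences shown and the search for shared words of 20 bases were chosen after values were seen. The windows and gene lists were chosen with earlier results of these data known. No window of chromosome 18 is named, and 1 window with forkhead letters is not reported here.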

Additional observations from a re-analysis of the deposited data

Results flagged for a closer look

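Among the groups of 6 animals at the 62 named windows and for the mean over the 1224, 1 animal stood far from the other 5 in 7 of 252. Each group pooled males and females, and some windows were named for a sex difference. No rate by chance is therefore set beside this count. In the Nod1 intron (chr6:54904501-54905000) this was B6 male 1 at 12.4% (others 7.01 to 8.90%), C3 female 1 at 90.5% (95.7 to 98.8%) and B6C3F1 female 2 at 55.5% (40.9 to 44.5%). In the Abr intron (chr11:76426001-76426500) it was B6 male 2 at 11.1% (3.49 to 5.84%) and B6C3F1 male 2 at 18.8% (12.4 to 14.7%). Near Zfp644 (chr5:107186501-107187000) C3 female 3 had 41.9% (50.8 to 56.0%), and in the Cyp46a1 exon window (chr12:109591001-109591500) B6C3F1 male 1 had 17.4% (27.1 to 30.8%).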

How the results depend on the processing

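The number of windows, 1224, became 567 with at least 100 counts per animal, 582 with at least 8 CpGs, 2026 at 25 points and 478 at 40 points. It was 1228 without the demand that the strains not overlap, 1211 from summed counts, 1206 with windows shifted by 250 bp, overlapping 781 of the 1224, 1072 without CpGs within 10 bp of an SNV, 1035 of them in common, and 1215 to 1257 with 1 parent left out. The 5 windows called between crosses became 2 at 20 points, 2 on the arcsine scale, 4 with 100 counts and 2 to 5 with 1 animal left out. They were 2 or 3 without any 1 of B6C3F1 males 2 and 3, B6C3F1 females 1, 2 and 3, C3B6F1 males 1 and 3 and C3B6F1 females 1 and 2. The 18 called between F1 sexes became 3 at 20 points, 11 with 100 counts, and 12 to 21 with 1 animal left out, and 10 were called in every such fit. The 157 called from the midparent (39 above, 118 below) became 20 at 20 points (13 above, 7 below), 45 with 100 counts (28 above, 17 below) and 145 to 157 with 1 animal left out, and 124 were called in every such fit. With no test, 39 of the 157 were still at least 10 points on the same side of the depth-weighted midparent (38 above, 1 below). Mean F1 position, 0.422, was 0.523 on the depth-weighted scale, 0.513 at a C3 depth of 80 to 120% of B6, 0.457 without an SNV in the window, 0.418 to 0.424 with 1 animal left out, and, chosen after seeing the data, 0.411 in F1 males and 0.432 in females. The 69.3% of windows with an SNV became 90.4% within 1 kb and 64.4% at a C3 depth of 80 to 120% of B6. The cause of these shifts was not tested beyond what each setting changes. Deviations of same-numbered animals had correlations of -0.0136 to 0.0646 over 84 pairs, and those of other pairs -0.0371 to 0.0199 over 168. Such low values cannot show whether numbers mark families, and the main fits used no pairing. A replicate block gave 5, 18 and 154 calls for crosses, F1 sexes and midparent. Depth limits what can be seen: C3 levels in these windows rest on a mean of 20.0 counts per CpG, and where C3 reads are few an F1 level cannot be read as a share of copies.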
